A study of Mus musculus with 8 samples.

Results

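Proteasome genes were followed in RNA from whole livers of 8 mice, measured on Illumina mouse bead arrays. The genes were taken by symbol: every gene whose name in GEO's platform annotation starts with Psma, Psmb, Psmc, Psmd, Psme, Psmf or Psmg followed by a digit. This gave 45 genes with 67 probes, of 16593 named genes on 25697 probes. Of the 45, 43 encode subunits, activators or assembly factors of the proteasome. The other two, Psmc3ip and Psme3ip1, carry the symbol because their proteins bind one, and are no subunits.

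The 4 mice labelled Mfn1 LKO (637, 638, 651 and 701) carry a deletion of Mfn1, a mitochondrial fusion protein, in the liver, and the 4 control mice (641, 658, 661 and 663) are given as Mfn1 wildtype. Both groups were of strain C57Bl6/Ntac, had 8 weeks of high fat feeding and were sampled after 6 hours without food. AlbCre, Cre recombinase under the albumin promoter, is directed at hepatocytes, and how far the gene is kept in other liver cells was not tested. Control titles also carry AlbCre, and whether those mice had Cre cannot be told from the labels. No age is stated in the labels. Each array is labelled with its own mouse number, so the spread is that between mice.

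The proteasome is the cell's main protease for ubiquitin-tagged proteins. Its 20S core is a stack of outer alpha rings and inner beta rings, with the catalytic sites inside the beta rings. A 19S cap, made of a base with ATPases and a lid with a deubiquitinase, binds the tagged protein, removes ubiquitin and threads the chain into the core. Under interferon gamma, Psmb8, Psmb9 and Psmb10 take the places of the standard catalytic subunits Psmb5, Psmb6 and Psmb7 and form the immunoproteasome, and the PA28 activator of Psme1 and Psme2 is induced with them. The transcription factor NFE2L1 (Nfe2l1) raises many proteasome genes together when proteasome activity is short. In the liver the proteasome works in protein quality control, and its inducible form in antigen presentation.

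As examples of the sequence in front of genes in the comparisons, 4 promoters that each hold a motif match are given from RefSeq (build GRCm38.p6). Each runs from 250 bases before to 50 after the gene's start, 5′ to 3′ on the gene's strand. They are those of Psmb8 (chr17:34197945-34198244, plus strand), Psmb5 (chr14:54617946-54618245, minus strand), Psma7 (chr2:180042415-180042714, minus strand) and Psmd14 (chr2:61711444-61711743, plus strand). Capitals mark matches to any of 4 motifs on either strand, namely TGACNNNGC (antioxidant response element, bound by NFE2L1 and NFE2L2), GAAA followed after any 2 bases by GAAA (core of the interferon-stimulated response element), TTCNNNGAA (gamma-activated sequence) and CCAAT.
Psmb8: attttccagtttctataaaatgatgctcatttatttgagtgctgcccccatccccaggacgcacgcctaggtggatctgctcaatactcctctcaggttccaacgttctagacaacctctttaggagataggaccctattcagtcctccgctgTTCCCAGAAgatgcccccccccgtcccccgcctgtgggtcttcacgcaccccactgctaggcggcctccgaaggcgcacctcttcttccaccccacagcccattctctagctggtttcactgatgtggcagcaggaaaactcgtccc
Psmb5: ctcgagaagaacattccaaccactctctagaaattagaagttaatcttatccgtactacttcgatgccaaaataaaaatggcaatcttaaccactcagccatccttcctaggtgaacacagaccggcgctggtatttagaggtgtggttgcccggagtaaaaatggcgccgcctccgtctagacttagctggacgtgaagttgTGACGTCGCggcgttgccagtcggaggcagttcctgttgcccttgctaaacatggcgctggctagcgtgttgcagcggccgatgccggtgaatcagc
Psma7: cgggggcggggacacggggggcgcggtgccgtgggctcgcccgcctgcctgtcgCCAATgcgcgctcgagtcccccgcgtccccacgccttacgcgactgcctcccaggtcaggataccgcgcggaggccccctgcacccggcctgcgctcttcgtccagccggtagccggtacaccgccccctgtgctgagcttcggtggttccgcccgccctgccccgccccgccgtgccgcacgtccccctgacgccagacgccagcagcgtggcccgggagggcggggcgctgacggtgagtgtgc
Psmd14: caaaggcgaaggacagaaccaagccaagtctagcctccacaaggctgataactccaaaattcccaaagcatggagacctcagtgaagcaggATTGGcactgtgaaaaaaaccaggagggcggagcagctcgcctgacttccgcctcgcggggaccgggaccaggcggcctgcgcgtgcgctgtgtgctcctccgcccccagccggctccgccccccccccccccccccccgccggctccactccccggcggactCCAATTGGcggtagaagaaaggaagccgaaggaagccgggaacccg
The Psmb8 window held a gamma-activated sequence and the Psmb5 window an antioxidant response element, while Psma7 and Psmd14 held CCAAT boxes only, the last 2 of them in Psmd14 overlapping. The table held 43 windows for 39 of the 45 genes. Among them, TGACNNNGC was found in 6 (14.0%, against 12.4% of all 32851 windows of the same length). The interferon-stimulated core was found in 4 (9.30%, against 3.44%), TTCNNNGAA in 3 (6.98%, against 8.30%) and CCAAT in 15 (34.9%, against 37.4%). The 4 windows with the interferon-stimulated core were those of Psmd4, Psmd9, Psmb3 and Psme1. Of the 3 immunoproteasome windows 0 held that core, and 1, that of Psmb8, held TTCNNNGAA. Other windows held no match, and that of Psma5 held 0 of the 4 motifs. A match describes letters in a window and no bound site.

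The values below are the deposited log2 intensities. Their array median was 6.65, their lowest value 6.38 and their highest 14.38, and a probe near the lowest values carries little signal of its transcript, so that a difference there is compressed. Array medians of the deposited linear intensities lay between 96.4 and 103.9 and precision is limited by there being 8 arrays. All pairs of arrays correlated between 0.989 and 0.996. The targeted gene, Mfn1, had a log2 intensity of 7.53, 7.40, 7.43 and 7.32 in Mfn1 LKO livers 637, 638, 651 and 701, and of 8.77, 8.81, 8.71 and 8.70 in controls 641, 658, 661 and 663. Mfn1 fell by 1.33 on the log2 scale (limma, SE 0.0463, adjusted p = 4.80e-06). Of 9 measured hepatocyte markers, Ttr lay at 13.94 to 14.13 in Mfn1 LKO livers and 13.91 to 14.01 in control livers. Tat was not above the array median in any mouse, and the brightest named probe of Alb was dim, at 6.65 to 7.06 in Mfn1 LKO livers and 6.72 to 7.08 in control livers. The summed hepatocyte marker signal, on the log2 scale, lay at 16.17 to 16.37 in Mfn1 LKO livers and 16.20 to 16.29 in control livers. The brightest markers dominate this sum. Of the 9 markers 6 were higher and 3 lower. Cps1 had 12.27, 11.72, 11.03 and 11.76 in Mfn1 LKO livers, against 11.93, 11.78, 11.97 and 11.94 in control livers. The mean of the 9, each set to 0 over the 8 mice, was 0.11, 0.00, -0.11 and -0.01 in Mfn1 LKO livers 637, 638, 651 and 701. In controls 641, 658, 661 and 663 it was 0.02, 0.01, 0.02 and -0.04.

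The first comparison asked whether proteasome transcripts differed between Mfn1 LKO and control livers. No proteasome probe passed an adjusted p of 0.05 with limma over all 25697 probes, where the share called was 0.00778% (2 probes, both of Mfn1), and the lowest adjusted p of a proteasome probe was 0.295. At an unadjusted p under 0.05, 6 of the 67 probes were higher in Mfn1 LKO livers (4.05% of all probes were) and 7 were lower (4.14% of all probes were). With the brightest probe of each gene, 2 of 45 genes were higher, the lid genes Psmd6 and Psmd14 (4.12% of all named genes were), and 5 were lower (4.48% of all named genes were). The 5 were the core genes Psma5, Psma7, Psmb1 and Psmb2 and the symbol-only gene Psme3ip1. The median log2 difference of the 45 genes was -0.017, against -0.003 over all named genes, and single genes lay between -0.18 and 0.23.

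**Figure D1:**
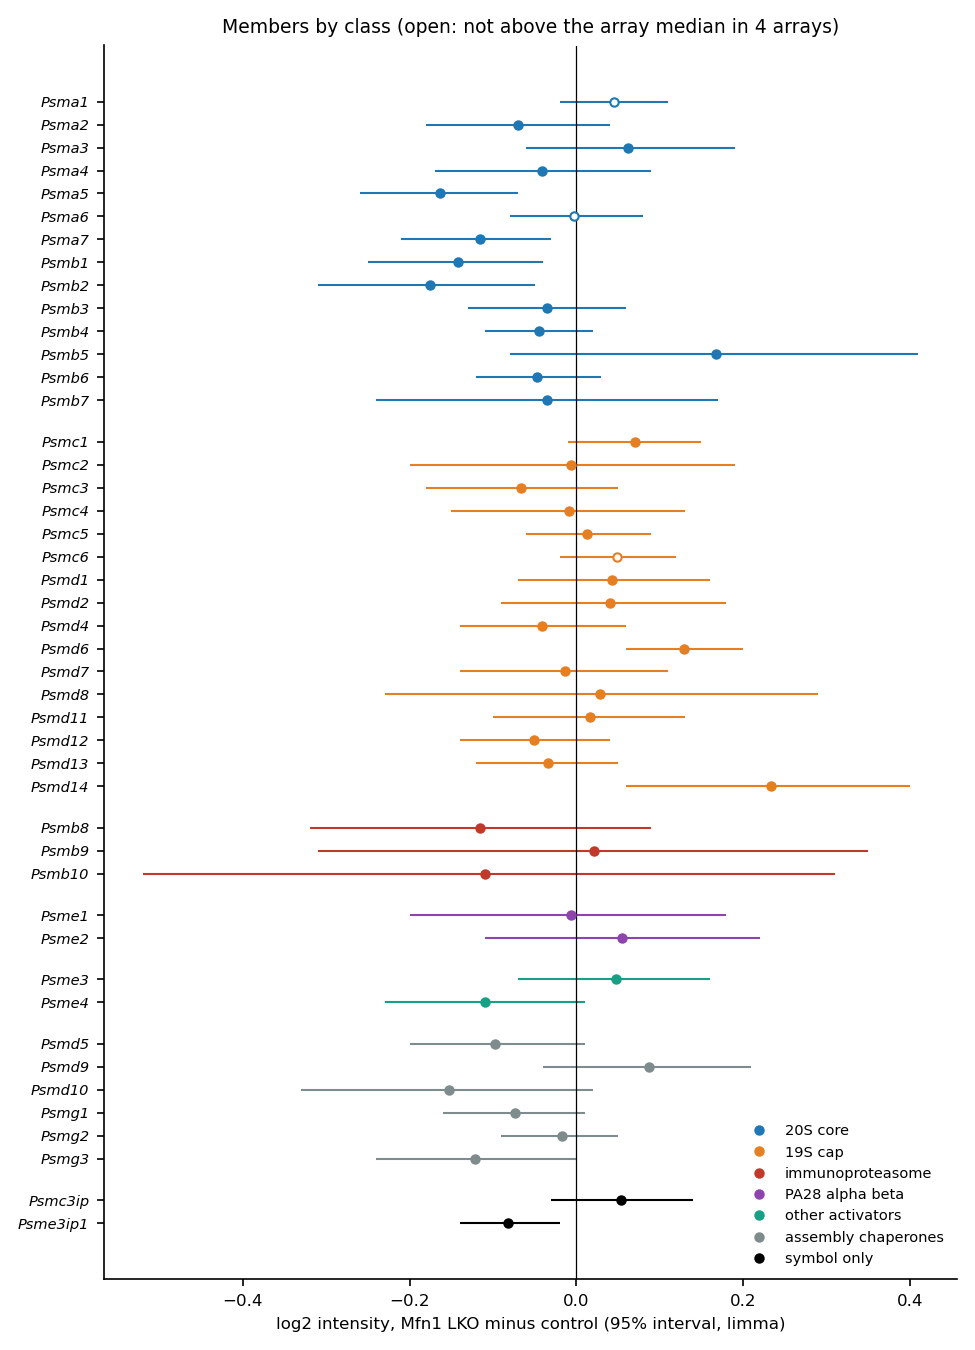
Log2 difference, Mfn1 LKO minus control, of the brightest probe of each of the 45 genes (horizontal axis) with its 95% interval from limma, grouped and coloured by class, with open points for the 3 genes whose brightest probe was not above the array median in at least 4 arrays. The 95% intervals of Psma5, Psma7, Psmb1, Psmb2 and Psme3ip1 lie below 0, those of Psmd6 and Psmd14 above 0, and the intervals of Psmb10 and Psmb9 are the widest of the 45.

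The counts at an unadjusted p moved with 1 mouse and with the scaling. Without Mfn1 LKO mouse 637 the lower genes numbered 8, and without Mfn1 LKO mouse 651 or control 658 the higher genes numbered 4. With arrays scaled to a common median, 1 gene was higher and 0 were lower by limma, and with normexp at offset 16, 0 were lower. With limma-trend 2 were lower, and with the mean of a gene's probes 4 were higher.

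Most 20S core genes had slightly lower values in Mfn1 LKO livers. Of 14 measured core genes, Psma1 to Psma7 and Psmb1 to Psmb7, 11 were lower and 3 higher, with a median log2 difference of -0.043. A lower value was also the more common one among all named genes (53.0% were lower) and among those with a mean log2 intensity of 8 or more (57.6% were lower). The 4 core genes with an unadjusted p under 0.05 were all lower. The core probes were mostly bright, and among named genes with a mean log2 intensity of 8 or more 9.79% were lower and 7.80% higher at that p, with a median of -0.018. For the 12 core genes above 8, 10 were lower and the median was -0.046.

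In the alpha rings, which gate entry to the core, Psma5 had log2 intensities of 11.17, 11.34, 11.26 and 11.16 in Mfn1 LKO livers, against 11.37, 11.45, 11.38 and 11.39 in control livers. The groups did not overlap, with every Mfn1 LKO value under the lowest control value, as was so for 2.37% of all named genes. The difference was -0.16 (limma, SE 0.0422, 95% interval -0.26 to -0.07, adjusted p = 0.314), a level of 0.893 times that of controls. Psma7 had 10.01, 10.07, 9.91 and 10.04 in Mfn1 LKO livers, against 10.06, 10.19, 10.13 and 10.12 in control livers, and here the groups overlapped by mouse 638 and control 641. Its difference was -0.12 (limma, adjusted p = 0.466), and its second probe gave -0.11 with no overlap. The 3 alpha genes Psma2 (-0.07), Psma3 (0.06) and Psma4 (-0.04) had 95% intervals that included 0. Psma1 and Psma6 were measured by probes between 6.45 and 6.58 in every mouse, below the array median of 6.65, too dim for the interval to limit a change of the transcript.

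In the beta rings, Psmb1 to Psmb4 have no catalytic site and all 4 were lower. Psmb2 had 10.62, 10.45, 10.52 and 10.75 in Mfn1 LKO livers, against 10.75, 10.73, 10.77 and 10.80 in control livers. Mice 637, 638 and 651 lay below all controls and mouse 701 lay among them. The difference was -0.18 (limma, SE 0.0572, 95% interval -0.31 to -0.05, adjusted p = 0.429). Its second probe gave -0.10, and the third, at 6.48 to 6.55, gave 0.01. Psmb1 had 10.46, 10.51, 10.44 and 10.33 in Mfn1 LKO livers, against 10.49, 10.65, 10.57 and 10.58 in control livers, a difference of -0.14 (limma, adjusted p = 0.434) with mouse 638 above control 641. Psmb3 (-0.03) and Psmb4 (-0.04) were closer to 0. The mean of the 4 genes, each set to 0 over the 8 mice, was -0.04, -0.07, -0.04 and -0.05 in Mfn1 LKO livers 637, 638, 651 and 701, and 0.03, 0.07, 0.05 and 0.04 in controls 641, 658, 661 and 663. The same mean overlapped between groups for the 7 alpha genes (-0.06 to 0.03 in Mfn1 LKO livers, -0.01 to 0.07 in control livers). It also overlapped for the 3 catalytic beta genes (-0.11 to 0.14 in Mfn1 LKO livers, -0.16 to 0.09 in control livers). How often a mean of 4 other genes separates the groups was not tested.

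**Figure D2:**
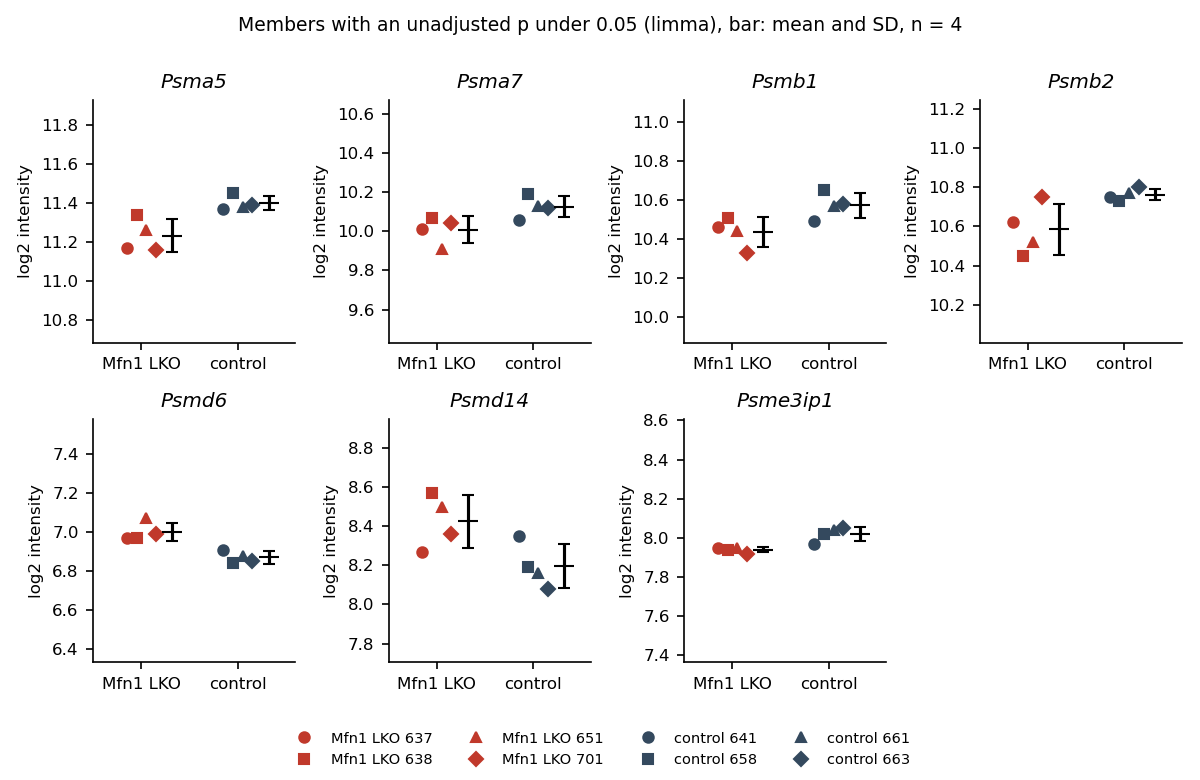
Log2 intensity (vertical axis, a span of the same size in every panel) of the 7 genes with an unadjusted p under 0.05, 1 point a mouse, Mfn1 LKO mice left and controls right, with the mean and SD of the 4 mice beside each group. Psma5 and Psme3ip1 are lower and Psmd6 higher in all 4 Mfn1 LKO mice than in any control, and the groups of the other genes overlap.

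Genes of the 19S cap did not lie to 1 side. Of 16 measured genes 9 were higher and 7 lower, with a median log2 difference of 0.015 that lay between -0.018 and 0.038 with any 1 mouse left out, so that its sign turned. At a mean log2 intensity of 8 or more, 5 of 12 cap genes were higher and 7 lower, with a median of -0.008. Of all named genes that bright, 57.6% were lower, with a median of -0.018. Of all 16 cap genes, 2 were higher and 0 lower at an unadjusted p under 0.05 by limma. In the base, the brightest probes of the 6 ATPases Psmc1 to Psmc6, which unfold the substrate, lay between -0.07 and 0.07. A second Psmc5 probe gave -0.09 (95% interval -0.22 to 0.03), against 0.01 on the brightest. Psmc1 was at 0.07 (limma, adjusted p = 0.690), Psmc2 at -0.01 and Psmc6, on a dim probe, at 0.05. The scaffold genes Psmd1 (0.04) and Psmd2 (0.04) and the ubiquitin receptor Psmd4 (-0.04) had 95% intervals that included 0 on their brightest probes. The second Psmd2 probe was opposite in sign at -0.10, with a 95% interval of -0.20 to -0.01 (limma, unadjusted p = 0.0391, adjusted p = 0.584).

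In the lid, Psmd14, the deubiquitinase that removes ubiquitin chains, had 8.27, 8.57, 8.50 and 8.36 in Mfn1 LKO livers, against 8.35, 8.19, 8.16 and 8.08 in control livers. Mouse 637 lay below control 641, and the other Mfn1 LKO mice lay above all controls. The difference was 0.23 (limma, SE 0.0747, 95% interval 0.06 to 0.40, adjusted p = 0.422). The lid subunit Psmd6 had 6.97, 6.97, 7.07 and 6.99 in Mfn1 LKO livers, against 6.91, 6.84, 6.88 and 6.85 in control livers, with no overlap, as was so in this direction for 2.19% of all named genes. This difference was 0.13 (limma, SE 0.0314, adjusted p = 0.297), on a probe not far above the array median, and a second, dimmer probe gave 0.07. The brightest probes of Psmd7, Psmd8, Psmd11, Psmd12 and Psmd13 lay between -0.05 and 0.03. Psmd8 varied most of these among Mfn1 LKO mice, with 9.69 in mouse 637 and 10.31 in mouse 651, against 9.81 to 10.06 in control livers.

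**Figure D3:**
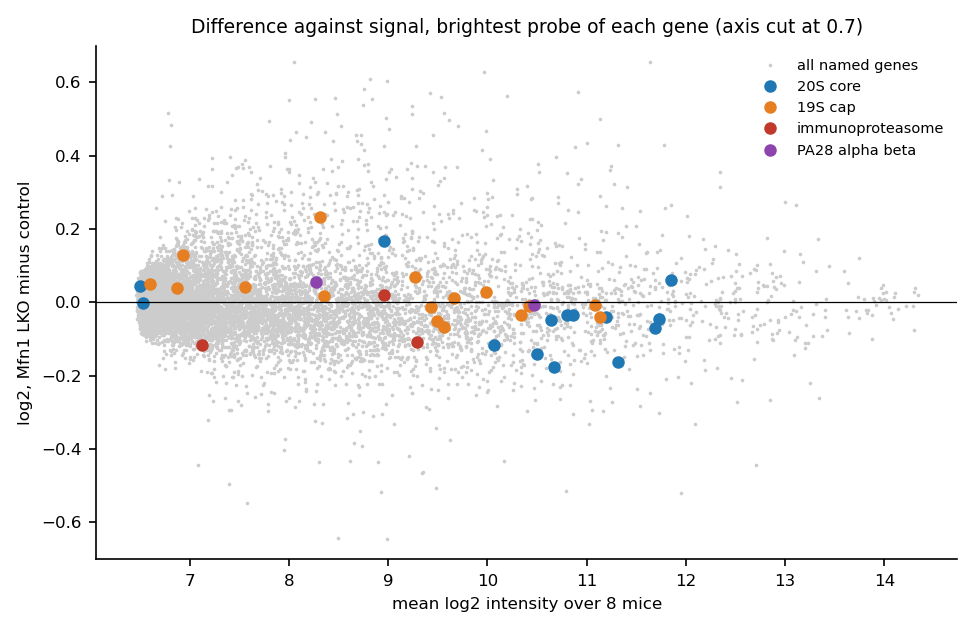
Log2 difference, Mfn1 LKO minus control (vertical axis), against the mean log2 intensity over the 8 mice (horizontal axis) for the brightest probe of named genes in grey. Genes of the core, cap, immunoproteasome and PA28 are in colour, and the other proteasome genes are not. The vertical axis is cut, so that genes with larger differences, such as Mfn1, are not shown. Core genes sit mostly at high signal and below 0, cap genes are spread over the signal range on both sides of 0, and the 3 genes not above the array median (Psma1, Psma6 and Psmc6) sit at the dim end.

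Probes of the same gene did not always go the same way. Of 18 genes with more than 1 probe, 9 had a probe of opposite sign to the brightest. For Psmb2 and Psmd5 that probe was not above the array median in any mouse. In the lid, the brightest probe of Psmd12 gave -0.05 and a dimmer one 0.23 (limma, adjusted p = 0.401). The dimmer Psmd12 probe had 7.24, 7.46, 7.32 and 7.36 in Mfn1 LKO livers, against 7.21, 7.26, 7.01 and 6.97 in control livers. Psmd11 gave 0.02 on its brightest probe and 0.19 on a dimmer one (limma, adjusted p = 0.295), where all 4 Mfn1 LKO mice, at 6.91 to 7.08, lay above all controls, at 6.75 to 6.88. Psmg2, a chaperone of core assembly, gave -0.02 and 0.20 on probes of similar signal. For Psmd12 and Psmg2 the array gives no single direction, while the Psmd11 probes differed in size and not in sign. Which transcripts these probes read was not tested.

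The second comparison set the immunoproteasome against the standard catalytic subunits. The 3 immunoproteasome genes varied between mice more than they differed between groups. Psmb8 had 7.17, 6.93, 6.91 and 7.27 in Mfn1 LKO livers, against 7.25, 7.32, 7.05 and 7.13 in control livers, a difference of -0.12 (limma, 95% interval -0.32 to 0.09, adjusted p = 0.820). Psmb9 had 8.92, 8.90, 8.74 and 9.31 in Mfn1 LKO livers, against 9.15, 9.17, 8.63 and 8.84 in control livers, a difference of 0.02 (95% interval -0.31 to 0.35). Psmb10 had 9.36, 9.12, 8.83 and 9.64 in Mfn1 LKO livers, against 9.12, 9.74, 9.17 and 9.36 in control livers, a difference of -0.11 (95% interval -0.52 to 0.31). A second Psmb10 probe of similar signal gave -0.02 (95% interval -0.37 to 0.33). Mouse 701 was the highest Mfn1 LKO mouse and mouse 651 the lowest for all 3 genes, and control 658 was the highest control for all 3.

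The median SD within a group was 0.241 in Mfn1 LKO and 0.262 in control livers for the 3 immunoproteasome genes. It was 0.0762 in Mfn1 LKO and 0.0590 in control livers for the 14 core genes, and 0.103 in Mfn1 LKO and 0.0908 in control livers for named genes with a mean log2 intensity of 8 or more. The standard subunit Psmb5 had 9.15, 9.16, 8.83 and 9.05 in Mfn1 LKO livers, against 9.15, 8.90, 8.82 and 8.65 in control livers, a difference of 0.17 (95% interval -0.08 to 0.41). Psmb6 was at -0.05 and Psmb7 at -0.04, and 2 further Psmb7 probes gave 0.06 and 0.04.

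Within each mouse, the log2 intensity of each inducible subunit was set against that of its standard counterpart, which shows unequal change between groups and not which is more abundant. Psmb8 minus Psmb5 was -1.97, -2.23, -1.92 and -1.78 in Mfn1 LKO livers, against -1.90, -1.59, -1.76 and -1.52 in control livers. The groups differed by -0.28 (exact two-sided permutation p = 0.0571, 0.171 after adjustment over the 3 pairs). Mouse 701 overlapped with control 641, and the difference lay between -0.35 and -0.20 with any 1 mouse left out. Psmb9 minus Psmb6 differed by 0.07 (exact permutation p = 0.657, adjusted 0.886) and Psmb10 minus Psmb7 by -0.07 (exact permutation p = 0.886, adjusted 0.886). With 1 mouse left out their sign changed, and 4 mice against 4 cannot give an exact p below 0.0286.

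**Figure D4:**
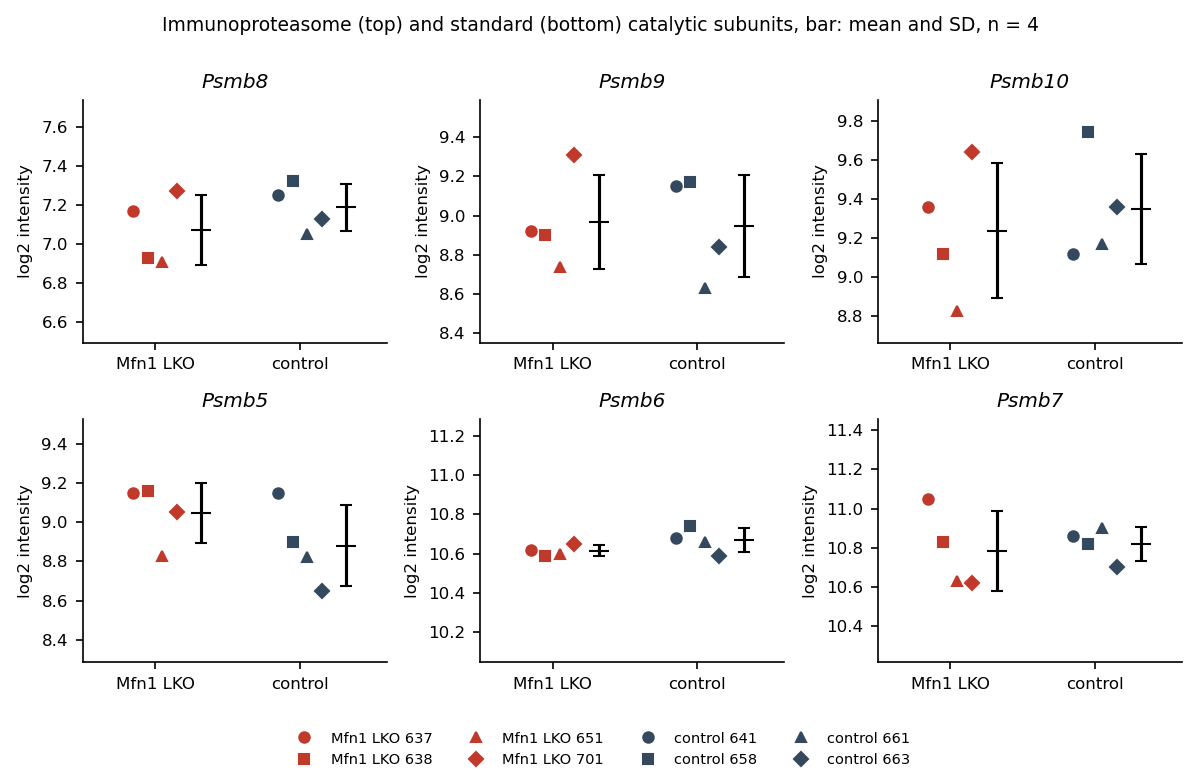
Log2 intensity (vertical axis, a span of the same size in every panel) of the inducible subunits Psmb8, Psmb9 and Psmb10 in the top row and of their standard counterparts Psmb5, Psmb6 and Psmb7 in the bottom row, 1 point a mouse, Mfn1 LKO left and control right, with the mean and SD of the 4 mice. In the top row Mfn1 LKO mouse 701 and control 658 are the highest of their groups in each panel, and the groups overlap in all 6 panels.

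The PA28 genes, induced by interferon with the immunoproteasome, were Psme1 (-0.01) and Psme2 (0.05). Psme1 had 10.26, 10.42, 10.49 and 10.71 in Mfn1 LKO livers, against 10.48, 10.56, 10.37 and 10.49 in control livers. Psme2 had 8.41, 8.24, 8.10 and 8.46 in Mfn1 LKO livers, against 8.29, 8.26, 8.23 and 8.22 in control livers. Mouse 701 was the highest of all 8 for both on these probes. A second Psme1 probe gave -0.04, with control 658 the highest at 9.48 and mouse 701 at 9.47. RefSeq also lists Psme2b, and whether the Psme2 probe separates the 2 genes was not tested. Of the other activators, Psme3 gave 0.05 and Psme4, which encodes PA200, gave -0.11 (limma, 95% interval -0.23 to 0.01, adjusted p = 0.643).

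Among 6 assembly chaperones 5 were lower and 1 higher, with a median of -0.086 on the brightest probes, and 0 passed an unadjusted p of 0.05 by limma. This count rests on the probe chosen, since 4 of the 6 have a probe of opposite sign, Psmd5 (0.04), Psmd9 (-0.03), Psmd10 (0.03) and Psmg2 (0.20). The Psmd5 probe of opposite sign, at 6.48 to 6.54, was not above the array median in any mouse. The Psmd9 probe would add to the lower genes, and the third Psmd10 probe was lower, at -0.09. Of those that pair core subunits, Psmg1 gave -0.07 and Psmg3 -0.12 (limma, adjusted p = 0.671 and 0.618). Of those of the base, Psmd5 gave -0.10, Psmd10, which encodes gankyrin, -0.15, and Psmd9 0.09. Psmd10 had 8.49, 8.54, 8.74 and 8.57 in Mfn1 LKO livers, against 8.69, 8.96, 8.66 and 8.65 in control livers. Only mouse 651 reached the controls. The symbol-only gene Psme3ip1, whose protein binds the PA28 gamma of Psme3, had 7.95, 7.94, 7.95 and 7.92 in Mfn1 LKO livers, against 7.97, 8.02, 8.04 and 8.05 in control livers, a difference of -0.08 (limma, adjusted p = 0.420) with no overlap. Psmc3ip, a factor of meiotic recombination, gave 0.05.

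Genes that work with the proteasome but carry other symbols were counted by lists. The counts at an unadjusted p under 0.05 stand beside 4.12% higher and 4.48% lower over all named genes, and 7.80% higher and 9.79% lower over those with a mean log2 intensity of 8 or more. Of 7 measured proteasome-bound factors 5 were higher and 2 lower (median 0.061), 2 of them higher at an unadjusted p under 0.05 and 0 after adjustment with limma. Sem1, a small lid subunit, had 10.84, 10.90, 10.86 and 10.98 in Mfn1 LKO livers, against 10.81, 10.70, 10.55 and 10.65 in control livers, with no overlap and a difference of 0.22 (limma, SE 0.0544, adjusted p = 0.312). Ecpas, a scaffold that holds core and cap together, gave 0.21 (limma, adjusted p = 0.362) with no overlap, and Usp14, a cap-bound deubiquitinase, 0.10. Pomp, the core maturation factor, gave -0.03.

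Of 8 measured regulators of proteasome genes 1 had an unadjusted p under 0.05. It was Mafg, a small MAF partner of NFE2L1 and NFE2L2, with 9.23, 9.20, 9.34 and 9.14 in Mfn1 LKO livers, against 9.44, 9.46, 9.44 and 9.47 in control livers. The groups did not overlap, and the difference was -0.23 (limma, SE 0.0415, 95% interval -0.32 to -0.13, adjusted p = 0.205). Nfe2l1 itself gave 0.07 and Ngly1, which processes its protein, -0.02 on a dim probe. Of 7 ubiquitin pathway and shuttle genes 1 had an unadjusted p under 0.05, Vcp, the segregase that extracts tagged proteins, at -0.12 (limma, adjusted p = 0.584). Ubqln4 gave -0.04 and Ubqln2 -0.02.

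Of 19 genes of antigen presentation and the interferon gamma response 9 were higher and 10 lower, with a median of -0.003. At an unadjusted p under 0.05 by limma 2 were higher, H2-D1 (0.37, adjusted p = 0.331) and Irgm1 (0.26, adjusted p = 0.449), and 2 lower, the chaperones Calr (-0.31, adjusted p = 0.272) and Pdia3 (-0.12, adjusted p = 0.514). The list mean, each gene set to 0 over the 8 mice, was highest in mouse 701 among Mfn1 LKO livers (0.13) and in control 658 among controls (0.12), the mice that were also highest for the immunoproteasome (0.28 and 0.28). Single genes of the list did not all follow this order, and control 641 was the highest control for Tap1 and Igtp.

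**Figure D5:**
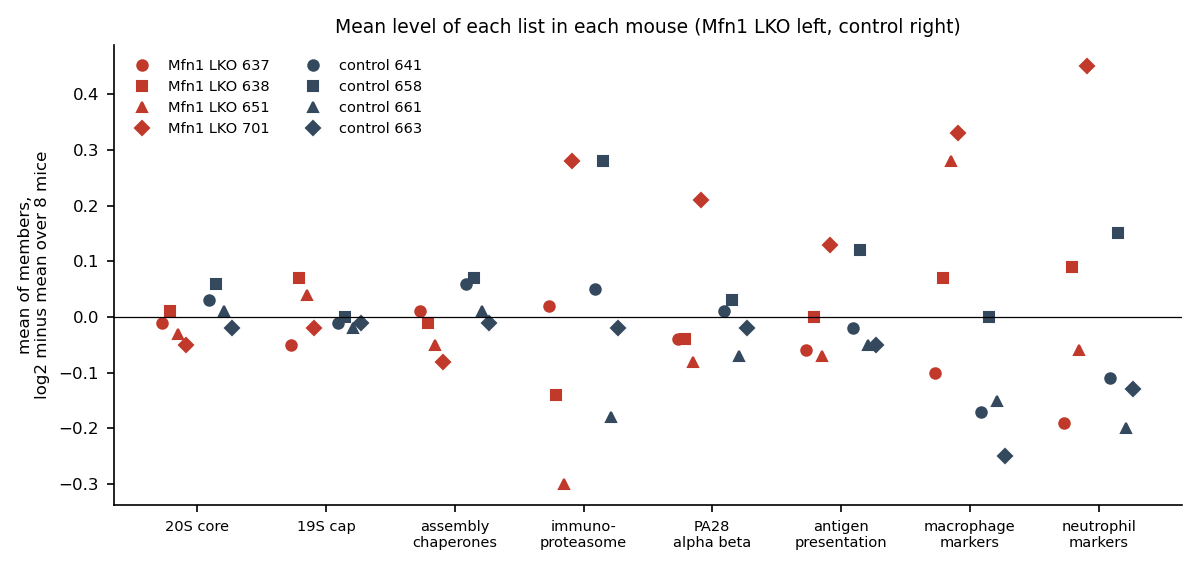
Mean over each list's genes of log2 intensity minus the gene's mean over the 8 mice (vertical axis), 1 point a mouse, with Mfn1 LKO mice left and controls right of each list. Mfn1 LKO mouse 701 and control 658 are both at 0.28 for the immunoproteasome, the core and cap lists stay between -0.05 and 0.07, and macrophage markers are higher in 3 of the 4 Mfn1 LKO mice than in any control.

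Immune cells express immunoproteasome genes too, and in whole liver more cells of a type and more RNA per cell cannot be told apart. Of 13 measured macrophage markers 13 were higher in Mfn1 LKO livers, 6 of them at an unadjusted p under 0.05 (4.12% of all named genes were higher at that p, and 7807 of 16593 were higher in sign). Their summed log2 signal was 11.95 to 12.46 in Mfn1 LKO livers and 11.82 to 12.05 in control livers. The marker Cd5l was not above the array median in any mouse. The marker mean was -0.10, 0.07, 0.28 and 0.33 in Mfn1 LKO livers 637, 638, 651 and 701, and -0.17, 0.00, -0.15 and -0.25 in controls 641, 658, 661 and 663. Mouse 651 was high for macrophage markers and lowest for the immunoproteasome. The neutrophil marker sum was 9.90 to 11.00 in Mfn1 LKO livers and 9.89 to 10.46 in control livers, and the marker mean was highest in mouse 701 (0.45) among Mfn1 LKO livers and in mouse 658 (0.15) among controls. The lymphocyte marker sum was 10.21 to 10.25 in Mfn1 LKO livers and 10.19 to 10.26 in control livers, with 7 of 12 markers not above the array median in 4 arrays. The endothelial sum was 11.65 to 11.80 in Mfn1 LKO livers and 11.46 to 11.83 in control livers. The part of these cells in the proteasome differences was not tested.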

How the data were processed

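RNA was extracted with the RNAdvanced tissue kit and labelled with Illumina TotalPrep, per the labels' protocols. The authors deposited linear bead intensity values per probe and log2 values of the same arrays. No deposited intensity lies near 0, as it would after background subtraction, and that step is not stated. The deposited log2 values were within 0.00662 of quantile normalized log2 intensities for every probe. The software behind both is not given in the sources used here.

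The log2 table was used as deposited. All 25697 probes were fitted with limma 3.58.1 in R 4.3.3 (lmFit, eBayes), two-sided, with Benjamini-Hochberg adjustment over all probes, Mfn1 LKO minus control, with no batch term since none is labelled. The platform annotation named 23978 probes, and all 45 proteasome genes matched RefSeq (GRCm38.p6) by gene ID. A gene was represented by its probe brightest over all 8 arrays. No probe was filtered out. Of the proteasome probes 60 of 67, and of the genes 42 of 45, lay above the array median in at least 4 arrays. Unequal change between 3 subunit pairs was tested by exact permutation over 70 arrangements. The fit was tested on simulated data. Figures were drawn with matplotlib 3.10.9.

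The genes and lists were chosen with earlier results of these data known. The genes named were Mfn1, the catalytic and PA28 genes, all with an unadjusted p under 0.05 or no overlap, 2 of smallest and 1 of largest p per class, and 3 of smallest p per pathway list. Others were named after their values were seen. Alternatives were normexp with offset 50 or 16, a common median, cyclic loess, a filter above the array median in 4 of 8 arrays, the mean of probes, limma-trend with robust estimation, array weights and each mouse left out. Psma8, Psmb11, Psmd3, Psmf1 and Psmg4 were not analysed here.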

Additional observations from a re-analysis of the deposited data

Results flagged for a closer look

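In 4 of 116 sets of 4 mice (1 gene in 1 group), 1 mouse lay far from the other 3, where chance gives about 1 in 20. Psmc2 was at 10.88 in control 641, against 11.13 to 11.17 in the other controls. Psmc3 was at 9.64 in control 663, against 9.57 to 9.58 in the others. Psmd10 was at 8.96 in control 658, against 8.65 to 8.69 in the others. Psmd12 was at 9.38 in Mfn1 LKO mouse 701, against 9.49 to 9.50 in the others.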

How the results depend on the processing

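No proteasome probe passed an adjusted p of 0.05 under the 7 alternatives that test probes or with any mouse left out, and with the mean of probes the lowest adjusted p of a proteasome gene was 0.333 (limma). The count of lower genes at an unadjusted p under 0.05, 5 as reported, was 0 with normexp at offset 16 or a common array median and 2 with limma-trend. The count of higher genes, 2 as reported, was 1 with a common median and 4 with the mean of probes. With 1 mouse left out they lay between 5 and 8 lower and between 2 and 4 higher. Of the 16 alternatives, Psma5 kept an unadjusted p under 0.05 in 14, Psmb2 in 14, Psma7 and Psmb1 in 12, Psmd14 in 15, Psme3ip1 in 13 and Psmd6 in 16. Class medians moved by more than the spread between mice with normexp at offset 16, to -0.135 for assembly chaperones and 0.025 for the 2 symbol-only genes. With 1 mouse left out, the class median lay between -0.060 and -0.030 for the 20S core, -0.106 and -0.063 for assembly chaperones, -0.183 and 0.028 for the immunoproteasome, -0.041 and 0.054 for PA28, and -0.055 and 0.002 for the other activators. With 1 mouse left out, Psmb10 minus Psmb7 lay between -0.26 and 0.06 and Psmb9 minus Psmb6 between -0.04 and 0.14. Signs of genes near 0 turned, with the log2 difference of Psme1 at 0.02 with a common median or cyclic loess and 0.01 with array weights, Psmc2 at 0.01 with cyclic loess or array weights, and Psma6 at 0.00025 with cyclic loess. With the mean of probes, Psmb7 was at 0.02, Psmd2 at -0.03, Psmg2 at 0.09 and Ngly1 at 0.0048. With 1 mouse left out, Psme1 lay between -0.09 and 0.06, Psmc2 between -0.07 and 0.06, Psma6 between -0.03 and 0.01, Psmd1 between -0.0046 and 0.08, Psmd2 between -0.01 and 0.08, Psmb10 between -0.24 and 0.03, Psmb7 between -0.12 and 0.02, Psmd8 between -0.08 and 0.13, Psmb9 between -0.09 and 0.10 and Psmg2 between -0.03 and 0.0032. The cause was not tested. No paired analysis was possible because the groups share no replicate number. Signals near the lowest of the array limit Psma1, Psma6 and Psmc6.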
